A study of Mus musculus with 4 samples.

Results

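The genes described here are the 10 of the mGluR6 signalling complex of retinal ON bipolar cells and its partners across the synapse, chosen by name from the 52636 genes of the table: Grm6, Trpm1, Nyx, Gpr179, Lrit3, Lrit1, Elfn1, Rgs7, Rgs11 and Gnao1. Retinal RNA came from 3-week-old mice, 2 libraries labelled WT and 2 labelled Q344X, a mutation known from autosomal dominant retinitis pigmentosa, in which rods and later cones are lost. Per the design text each group first had 3 replicates, and 2 animals per group remained once poor RNA and outlying values had been dropped; the labels' protocol instead counts 3 mutant and 2 control mice. The labels say nothing of how the allele was made, the copies carried, or the strain, sex and litter. No label names the animal behind a library. Replicates are numbered here in order of deposit, which pairs none of them.

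ON bipolar cells are the second-order neurons that depolarize when light comes on. In darkness, glutamate from rods and cones activates the receptor mGluR6 on their dendrites, and the G protein Go then keeps the cation channel TRPM1 shut. Light lowers glutamate, RGS proteins switch Go off and TRPM1 opens. Leucine-rich repeat proteins on both sides of the synapse hold the parts in place. Loss of GRM6, TRPM1, NYX, GPR179 or LRIT3 is known as a cause of congenital stationary night blindness. Reads came from whole retina, so fewer cells of a type and less RNA per cell cannot be told apart.

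In the Q344X retina 3 of the 10 genes fell, 0 rose and 7 did not pass the threshold (limma on log2(normalized count + 1), Benjamini-Hochberg adjusted p under 0.05 over 16833 tested genes). Those that fell were Nyx, at 26.7% of its WT mean, Lrit3, at 54.4%, and Lrit1, at 57.9%. The receptor gene Grm6 was at 89.2% of its WT mean and the G protein gene Gnao1 at 106%, neither past the threshold. Over all tested genes 9.1% were called lower and 5.46% higher. At an unadjusted p under 0.05, 4 of the 10 were lower and 0 higher. The share of all tested genes at an unadjusted p under 0.05 was not computed. This count, and those given below for other lists at that threshold, therefore cannot be read as an excess. The median log2 fold change was -0.56 over the 10 genes and 0.02 over all tested genes, whose quartiles were -0.48 and 0.43. WT and Q344X libraries were fully separate in 6 of the 10 genes, all lower in Q344X; over all tested genes the share without overlap was 63.1%, and 31.7% did so with Q344X lower.

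The sequences just before the start sites of the genes that fell are shown with that of Trpm1, which shares a motif with Lrit1. They are the 250 bases before the RefSeq start site (GRCm38.p6), 5′ to 3′ on the gene's strand; for Nyx and Lrit3 that start lies upstream of the gene as annotated in GENCODE. Capitals mark TAATCC, the core bound by the photoreceptor and bipolar factors CRX and OTX2, or its reverse complement.
Nyx, chrX:13460840-13461089, plus strand: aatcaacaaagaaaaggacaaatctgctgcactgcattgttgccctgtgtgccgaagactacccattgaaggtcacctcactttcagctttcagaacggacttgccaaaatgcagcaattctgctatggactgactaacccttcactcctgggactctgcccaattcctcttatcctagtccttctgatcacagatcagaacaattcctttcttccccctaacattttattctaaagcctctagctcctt
Lrit3, chr3:129804137-129804386, minus strand: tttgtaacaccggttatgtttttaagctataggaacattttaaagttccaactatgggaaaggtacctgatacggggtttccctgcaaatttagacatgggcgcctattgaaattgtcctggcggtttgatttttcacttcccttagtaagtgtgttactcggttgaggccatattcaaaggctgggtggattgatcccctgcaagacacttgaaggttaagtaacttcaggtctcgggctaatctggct
Lrit1, chr14:37054580-37054829, plus strand: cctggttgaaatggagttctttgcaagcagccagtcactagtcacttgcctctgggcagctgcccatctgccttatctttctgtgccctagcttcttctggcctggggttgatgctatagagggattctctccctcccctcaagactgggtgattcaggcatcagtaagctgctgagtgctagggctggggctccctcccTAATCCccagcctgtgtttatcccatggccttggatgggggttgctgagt
Trpm1, chr7:64153585-64153834, plus strand: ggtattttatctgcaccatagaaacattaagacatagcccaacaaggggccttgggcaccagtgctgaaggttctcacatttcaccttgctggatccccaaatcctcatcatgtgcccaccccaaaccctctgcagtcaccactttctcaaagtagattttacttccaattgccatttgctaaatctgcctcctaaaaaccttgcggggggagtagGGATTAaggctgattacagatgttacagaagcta
Of the 10 genes 9 had an entry (all but Rgs11), with a second window for Trpm1. Searched on both strands, TAATCC was in a window of 2 of these 9 genes, Lrit1 and Trpm1, where it ended 44 and 28 bases before the start, and in 6.25% of all 32851 windows of this length. The homeodomain core TAATTA was in 0 of the 9 genes and in 4.84% of all windows. The E-box CANNTG was in 7 of the 9 genes, in neither Nyx nor Elfn1, and in 66.2% of all windows. The window of Nyx holds none of these motifs, and that of Lrit3 only the E-box. A match describes letters and is not a site.

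**Figure D1:**
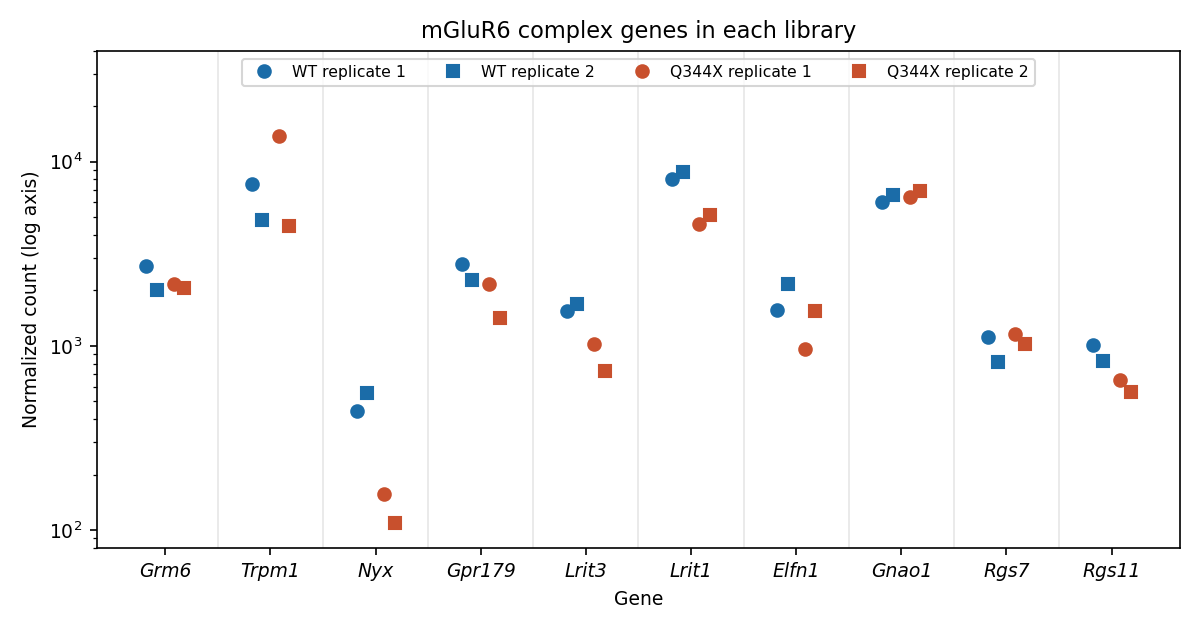
Normalized count (log axis) of each of the 10 genes in the 4 libraries; blue is WT, orange is Q344X, circles are replicate 1 and squares replicate 2. The Nyx points of Q344X lie at 156 and 108, below 440 and 552 in WT, and the Trpm1 point of Q344X replicate 1, at 13748, stands apart from the other 3.

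Grm6 encodes mGluR6 itself (ENSMUSG00000000617, chromosome 11, 50850685 to 50866208, GRCm38). Its normalized counts were 2721 and 2010 in WT replicates 1 and 2 and 2159 and 2061 in Q344X replicates 1 and 2. The Q344X values lie between the WT values. This gave a log2 fold change of -0.15 ± 0.21 (SE), with a 95% interval of -0.66 to 0.36 (limma adjusted p = 0.643). Without WT replicate 1 it was 0.07.

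Trpm1 encodes the channel that the cascade closes (ENSMUSG00000030523, chromosome 7, 64153835 to 64269775). It was at 7565 and 4796 normalized counts in WT and at 13748 and 4467 in Q344X. The Q344X libraries are the highest and the lowest of the 4. The log2 fold change was 0.38 ± 0.54 (SE), with a 95% interval of -0.94 to 1.70 (limma adjusted p = 0.647). It was -0.43 without Q344X replicate 1 and 1.19 without Q344X replicate 2. The log2 gap between the Q344X libraries, 1.62, was wider than that of 98.2% of tested genes, and the gap between the WT libraries was 0.66. Long genes in general were higher in Q344X replicate 1 than in replicate 2. The median log2 gap was 0.30 in the fifth of tested genes with the longest exons, which holds Trpm1, and -0.30 in the fifth with the shortest. With a correction for length and GC content Trpm1 had 0.62 (adjusted p = 0.288). Pigment cells also express Trpm1. The summed count of the 3 pigment epithelium markers, most of it from Ttr, was 2041 and 2180 in WT and 2758 and 3728 in Q344X, and their part in the Trpm1 values was not tested.

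Nyx encodes nyctalopin, a leucine-rich repeat protein of ON bipolar dendrites that brings TRPM1 to the membrane (ENSMUSG00000051228, chromosome X, 13466110 to 13489313). It was at 440 and 552 normalized counts in WT and at 156 and 108 in Q344X. Both Q344X libraries lie well below both WT libraries. Divided by what 1 read is worth, these are 113 to 551 reads per library, the fewest of the 10 genes. Nyx fell by 1.91 ± 0.26 on the log2 scale (SE), with a 95% interval of -2.55 to -1.27 (limma adjusted p = 0.0126), and 3.74% of tested genes had a lower one. Leaving out 1 library gave -2.17 to -1.65, and testing every gene above 0 ended the call (adjusted p = 0.0541).

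Gpr179 encodes an orphan receptor that anchors the RGS proteins beside mGluR6 (ENSMUSG00000070337, chromosome 11, 97332109 to 97352077). Its normalized counts were 2795 and 2275 in WT and 2158 and 1407 in Q344X. The groups do not overlap, but Q344X replicate 1 lies close to WT replicate 2. Its log2 fold change was -0.53 ± 0.26 (SE), with a 95% interval of -1.17 to 0.10 (limma adjusted p = 0.200). Without Q344X replicate 1 it was -0.84, and without Q344X replicate 2 it was -0.22.

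Lrit3 encodes a leucine-rich repeat protein needed for nyctalopin and TRPM1 to gather at the dendritic tips (ENSMUSG00000093865, chromosome 3, 129787881 to 129804030). It was at 1545 and 1677 normalized counts in WT and at 1022 and 730 in Q344X. The groups do not overlap, and the Q344X libraries differ more from each other than the WT libraries do. Lrit3 fell by 0.90 ± 0.22 on the log2 scale (SE), with a 95% interval of -1.44 to -0.36 (limma adjusted p = 0.0482). This call lies just inside the threshold. It ended without WT replicate 1 (adjusted p = 0.163), WT replicate 2 (0.198) or Q344X replicate 2 (0.0618), where the log2 fold change was -0.96, -0.84 and -0.66. It also ended without a variance trend (0.0836), with a minimum mean of 50 (0.0525) and without a filter (0.106).

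Lrit1 encodes a related protein, made by photoreceptors and found at their synapse (ENSMUSG00000041044, chromosome 14, 37054830 to 37064946). Its normalized counts were 8017 and 8773 in WT and 4578 and 5142 in Q344X. Replicates lie close together and the groups stand apart. Lrit1 fell by 0.79 ± 0.18 on the log2 scale (SE), with a 95% interval of -1.22 to -0.36 (limma adjusted p = 0.0385). The call ended without WT replicate 1 (adjusted p = 0.203) or 2 (0.253), without a variance trend (0.0692) and without a filter (0.0867). The third gene of the family, Lrit2, lies next to Lrit1 on chromosome 14 (37067929 to 37073743, same strand). Lrit2 was at 5285 and 4635 normalized counts in WT and at 1121 and 1208 in Q344X (log2 fold change -2.09 ± 0.18, limma adjusted p = 0.00516).

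Elfn1 encodes a leucine-rich repeat adhesion protein of photoreceptor terminals that binds mGluR6 across the cleft (ENSMUSG00000048988, chromosome 5, 139907943 to 139974722). It was at 1565 and 2170 normalized counts in WT and at 964 and 1549 in Q344X. Q344X replicate 2 reaches almost to WT replicate 1. The log2 fold change was -0.59 ± 0.29 (SE), with a 95% interval of -1.31 to 0.13 (limma adjusted p = 0.208). Without Q344X replicate 2 it was -0.93, and without Q344X replicate 1 it was -0.25.

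Gnao1 encodes the alpha subunit of Go, which is expressed in many retinal neurons (ENSMUSG00000031748, chromosome 8, 93809966 to 93969388). Its normalized counts were 6027 and 6578 in WT and 6407 and 6923 in Q344X. The groups overlap. Gnao1 had a log2 fold change of 0.08 ± 0.17 (SE), with a 95% interval of -0.34 to 0.50 (limma adjusted p = 0.768), and it lay between 0.02 and 0.17 under all 13 alternatives.

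Rgs7 and Rgs11 encode the GTPase-activating proteins that switch Go off. Rgs7 (ENSMUSG00000026527, chromosome 1, 175059087 to 175492500) was at 1112 and 821 normalized counts in WT and at 1166 and 1020 in Q344X. The groups overlap (log2 fold change 0.19 ± 0.22, SE, 95% interval -0.34 to 0.72, limma adjusted p = 0.567), and without WT replicate 2 the log2 fold change was -0.03. Rgs11 (ENSMUSG00000024186, chromosome 17, 26202951 to 26211324) was at 1011 and 823 in WT and at 650 and 563 in Q344X. Both Q344X libraries lie below both WT libraries. The log2 fold change was -0.59 ± 0.20, with a 95% interval of -1.08 to -0.10, but it missed the adjusted threshold (limma adjusted p = 0.0976). It was -0.69 without Q344X replicate 1 and -0.49 without Q344X replicate 2. The ratio of Rgs11 to Rgs7 normalized counts was 0.909 and 1.002 in WT and 0.558 and 0.552 in Q344X; this ratio was not tested. Arhgdig, a protein-coding gene on the opposite strand, overlaps Rgs11 and was at 56.2 and 147 normalized counts in WT and at 232 and 394 in Q344X. No source used here says whether reads were counted by strand, so reads of this pair may not be told apart.

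**Figure D2:**
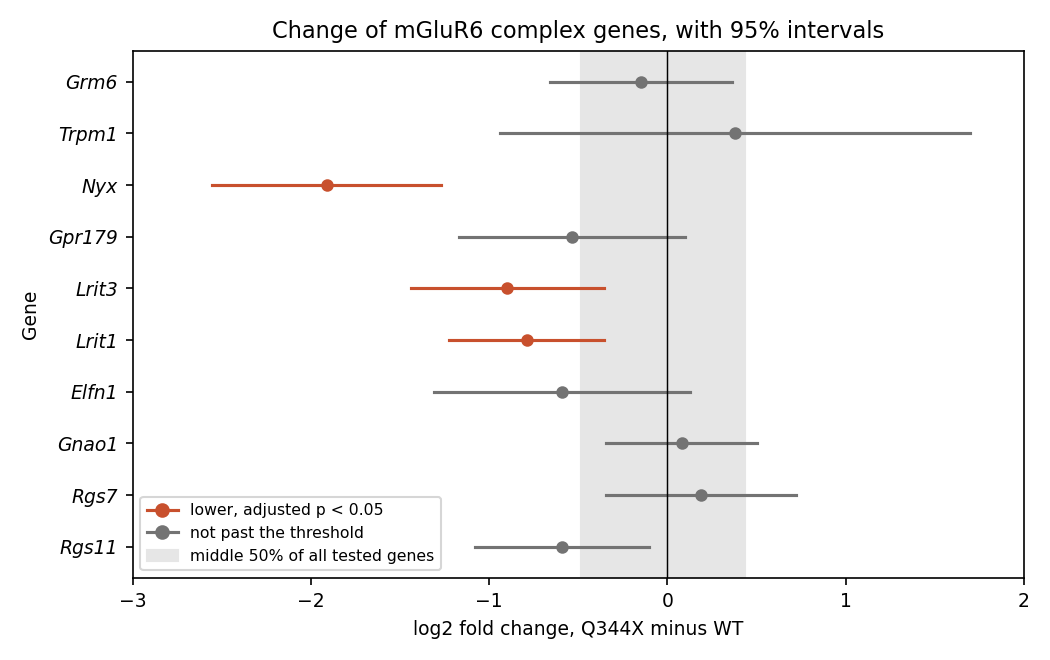
log2 fold change (Q344X minus WT) of each gene with its 95% interval from limma; orange genes passed the threshold, grey genes did not, and the grey band spans the quartiles of all tested genes, -0.48 to 0.43. Nyx, Lrit3 and Lrit1, which passed, and Elfn1, Rgs11 and Gpr179, which did not, lie to the left of the band, and the interval of Trpm1, -0.94 to 1.70, is the widest of the 10.

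**Figure D3:**
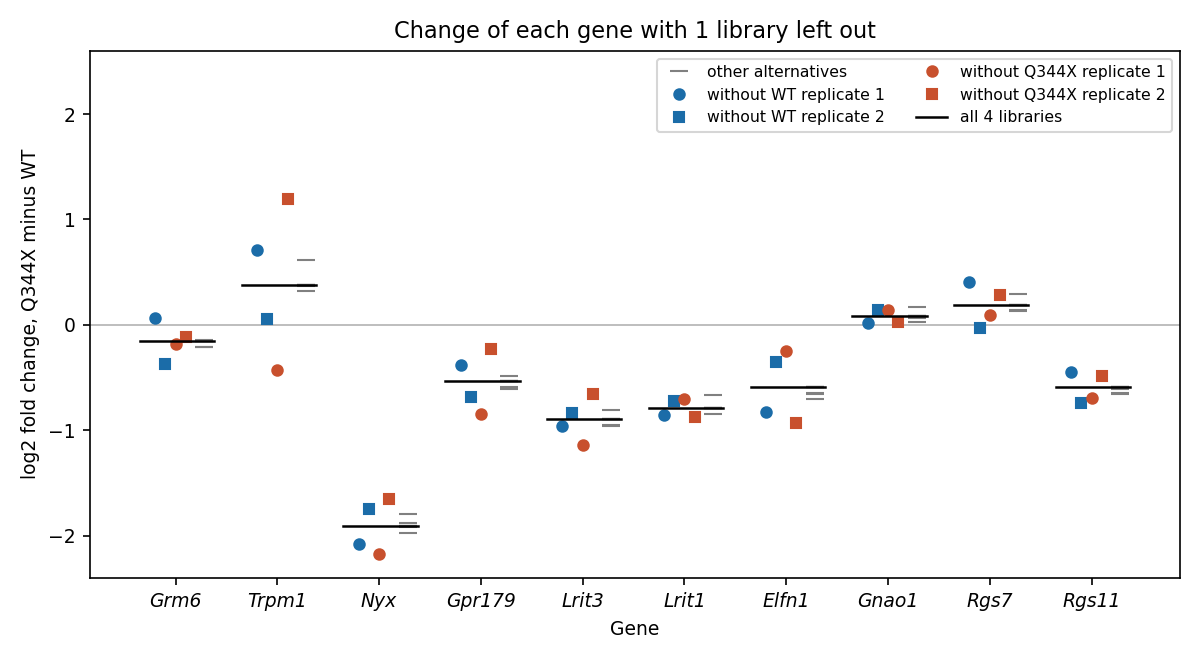
log2 fold change (Q344X minus WT) of each gene with all 4 libraries (black line), with 1 library left out (coloured points) and under the 9 other alternatives (grey ticks). Nyx stays between -2.17 and -1.65, whereas Trpm1 goes from -0.43 without Q344X replicate 1 to 1.19 without Q344X replicate 2.

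Levels can be compared between genes per kilobase of annotated exon. In WT, Lrit1 had the highest level, 1941 ± 124 normalized counts per kilobase (SD, n = 2), followed by Lrit3 at 588 ± 34.1, Gnao1 at 570.2 ± 35.3, Elfn1 at 448 ± 102, Grm6 at 436 ± 92.6 and Trpm1 at 419 ± 133. Gpr179 was at 266 ± 38.6 per kilobase, Rgs11 at 218 ± 31.6, Rgs7 at 161 ± 34.1 and Nyx, the lowest, at 95.7 ± 15.4. Library ranges overlapped between Lrit3 and Gnao1, among Elfn1, Grm6 and Trpm1, and between Gpr179 and Rgs11, so these neighbours do not differ beyond their spread. In Q344X the order per kilobase was Lrit1 (1124 ± 92.2), Trpm1 (618 ± 445), Gnao1 (603 ± 33.0), Grm6 (389 ± 12.8), Lrit3 (319.8 ± 75.2), Elfn1 (301 ± 99.1), Gpr179 (187 ± 55.7), Rgs7 (182 ± 17.1), Rgs11 (144 ± 14.6) and Nyx (25.6 ± 6.54). Here the range of Trpm1 overlapped those of Gnao1, Grm6, Lrit3 and Elfn1, so its place in the order is not settled. The ranges of Lrit3 and Elfn1 overlapped, and that of Gpr179 overlapped those of Rgs7 and Rgs11. Lrit3 thus stood above Grm6 in both WT libraries and below it in both Q344X libraries. Exon length is the union over annotated transcripts, so the level per kilobase of a gene such as Trpm1, with 14746 bases of exon, may be understated.

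The other genes of the cascade were taken from a list. Of 15 G protein and RGS partners 2 fell, 0 rose (limma; 1 higher and 2 lower at an unadjusted p under 0.05) and 13 did not pass, with a median log2 fold change of -0.28. Rgs9bp, which anchors the RGS9 complex in photoreceptors, was at 20030 and 23415 normalized counts in WT and at 7516 and 7713 in Q344X (-1.51 ± 0.18, SE, limma adjusted p = 0.00979). Rgs7bp, a membrane anchor of RGS7-family proteins, was at 1327 and 1583 in WT and at 870 and 737 in Q344X (-0.85 ± 0.20, limma adjusted p = 0.0404). The call of Rgs7bp ended without WT replicate 1 (adjusted p = 0.141) or 2 (0.260), without a variance trend (0.0713) and without a filter (0.0895). Gnb5, the beta subunit that pairs with RGS proteins, had 0.18 ± 0.19, and Gnb3, the beta subunit of ON bipolar cells and cones, had 0.46 ± 0.24. Rgs9, the RGS protein of photoreceptors, had -0.58 ± 0.43, and Prkca, the kinase that marks rod bipolar cells, had -0.33 ± 0.18. None of these 4 passed with all libraries. Rgs9 had -1.25 without Q344X replicate 1 and 0.09 without Q344X replicate 2.

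On the photoreceptor side of the synapse 3 of 9 listed genes fell, 0 rose (limma; 0 higher and 4 lower at an unadjusted p under 0.05) and 6 did not pass, with a median of -0.58. Beside Lrit2, Cabp4, a calcium sensor of the release channel, had -1.63 ± 0.23 (SE, limma adjusted p = 0.0130) and Egflam, which encodes pikachurin, the matrix protein that links the terminal to the bipolar dendrite, had -1.20 ± 0.18 (limma adjusted p = 0.0159). Without a filter both calls ended (adjusted p = 0.0544 for each), and that of Egflam also without WT replicate 2 (0.0796). Cacna1f, the pore subunit of the release channel, had -0.95 ± 0.27 (limma adjusted p = 0.0652), and it passed with the length and GC correction (0.0378). Cacna1f had -1.30 without Q344X replicate 1 and -0.60 without Q344X replicate 2. Cacna2d4 and Cacnb2, auxiliary subunits of that channel, had -0.58 ± 0.28 and -0.28 ± 0.35, and the vesicular glutamate transporter gene Slc17a7 had -0.54 ± 0.34. These 3 did not pass with all libraries. Without Q344X replicate 1, Cacna2d4 had -0.97, Cacnb2 -0.80 and Slc17a7 -0.14. Without Q344X replicate 2 they had -0.19, 0.25 and -0.94.

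Among 7 listed metabotropic glutamate receptor genes, Grm6 had the highest level per kilobase in both genotypes, and 1 fell, 0 rose (limma; 1 higher and 1 lower at an unadjusted p under 0.05) and 6 did not pass, with a median of -0.15. Grm8, a group III receptor like Grm6, was at 709 and 751 normalized counts in WT and at 291 and 156 in Q344X (-1.77 ± 0.32, SE, limma adjusted p = 0.0242, or 0.0773 without a filter). Grm5, Grm7 and Grm2 had -0.14 ± 0.22, -0.18 ± 0.25 and 0.11 ± 0.30, none past the threshold.

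**Figure D4:**
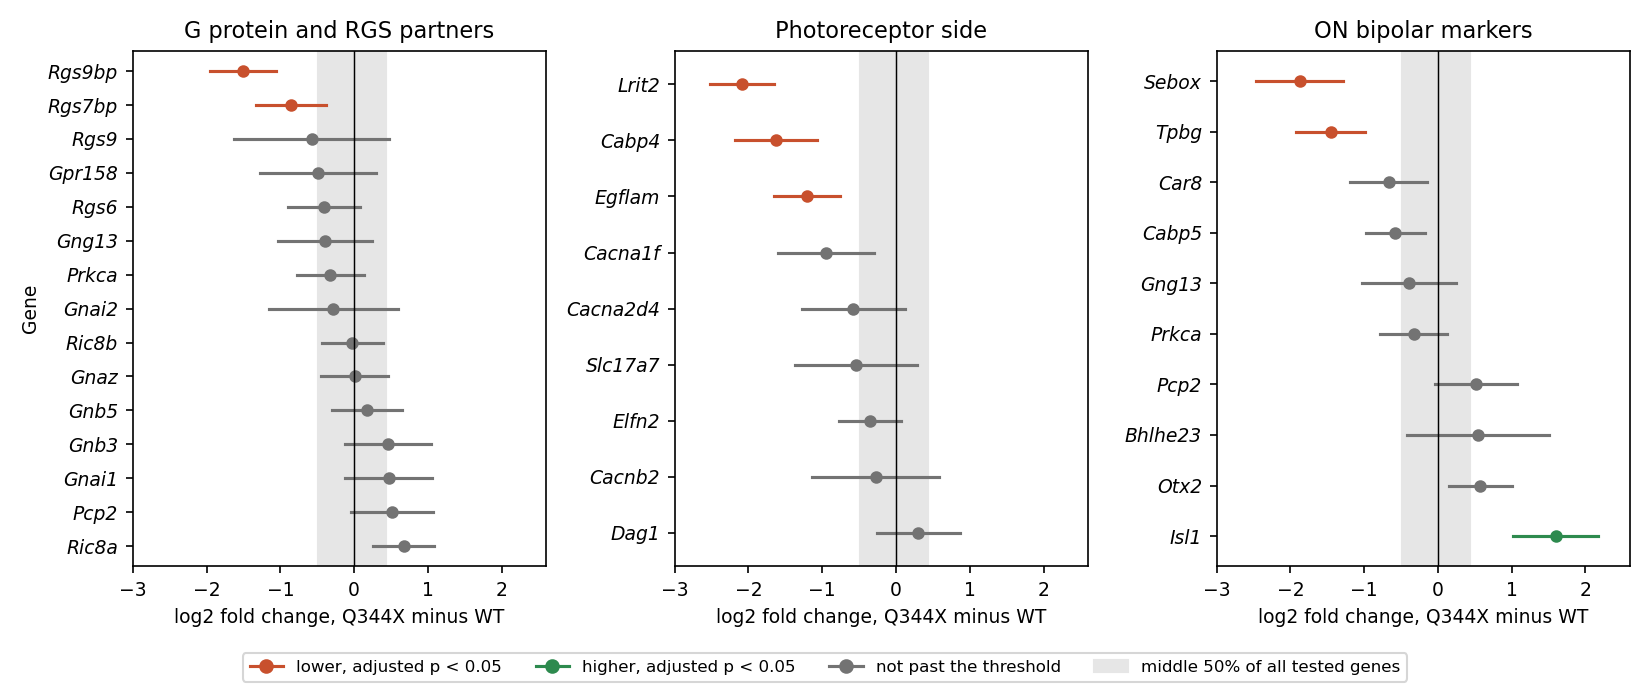
log2 fold change (Q344X minus WT) with its 95% interval for 3 lists, the G protein and RGS partners, the photoreceptor side of the synapse and the ON bipolar markers; orange genes fell, green genes rose, grey genes did not pass, and the grey band spans the quartiles of all tested genes. The ON bipolar markers run from -1.87 for Sebox to 1.60 for Isl1.

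Markers of ON bipolar cells moved both ways. All 10 listed were above 0 in every library, 1 rose, 2 fell and 7 did not pass, with a median of -0.36. Isl1 (1.60 ± 0.24, SE), a transcription factor of bipolar cells also found in other retinal cells, rose. Sebox (-1.87 ± 0.24), a homeobox gene, and Tpbg (-1.46 ± 0.19), a glycoprotein of rod bipolar cells, fell (limma adjusted p between 0.0111 for Sebox and 0.0153 for Isl1). Without a filter the call of Isl1 ended (adjusted p = 0.0593). The summed normalized count of the list was 22036 and 21728 in WT and 24708 and 24791 in Q344X. Of 9 OFF bipolar markers Tacr3 fell (-1.66 ± 0.18, limma adjusted p = 0.00828), 0 rose (limma; 1 higher and 2 lower at an unadjusted p under 0.05) and 8 did not pass, with a median of 0.10.

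Set against the summed ON bipolar markers of the same library, Nyx was at 19.96 and 25.4 normalized counts per 1000 marker counts in WT and at 6.33 and 4.37 in Q344X. Lrit3 was at 70.1 and 77.2 per 1000 in WT and at 41.3 and 29.5 in Q344X. Grm6 was at 123.5 and 92.5 in WT and at 87.4 and 83.1 in Q344X. On this scale the groups did not overlap in 7 of the 10 genes, all lower in Q344X, with Trpm1, Rgs7 and Gnao1 the exceptions. Lrit1 and Elfn1 are expressed in photoreceptors, and Lrit3 is known to be made there too. For them neither this scale nor a ratio to Prkca is a level per ON bipolar cell. Of the 16823 tested genes outside the marker list, 62.4% did not overlap on this scale and 40.7% did so with Q344X lower. Its denominator is larger in Q344X, and the scale includes Isl1, which rose. With Isl1 left out, the marker sum was 20069 and 20370 in WT and 19341 and 20237 in Q344X. Otx2, not past the threshold, stays in that sum, at 4888 and 4457 normalized counts in WT and at 7262 and 6661 in Q344X. Of the 10 markers 6 had a log2 fold change below 0. A sum without Otx2 was not computed. Without Isl1 the values of Grm6 overlapped, at 135.6 and 98.7 per 1000 in WT and at 111.6 and 101.8 in Q344X. On that scale 6 members were lower without overlap, and Gnao1 was higher without overlap. Of the same genes 63.7% were without overlap and 30.0% with Q344X lower. Otx2 was higher in Q344X, so leaving it out would lower the Q344X sums more than the WT sums. That would raise every member in Q344X relative to WT, so the count of 6 holds only for a sum that includes Otx2. Prkca alone was also used. Leaving out Isl1 and using Prkca alone were both chosen after the values were seen. Grm6 was at 0.446 and 0.339 counts per Prkca count in WT and at 0.407 and 0.474 in Q344X, which overlap. Nyx was at 0.0720 and 0.0932 per Prkca count in WT and at 0.0295 and 0.0249 in Q344X, again without overlap. Lrit3 was at 0.253 and 0.283 in WT and at 0.193 and 0.168 in Q344X, and Lrit1 at 1.31 and 1.48 in WT and at 0.863 and 1.18 in Q344X. These ratios are given without a test.

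**Figure D5:**
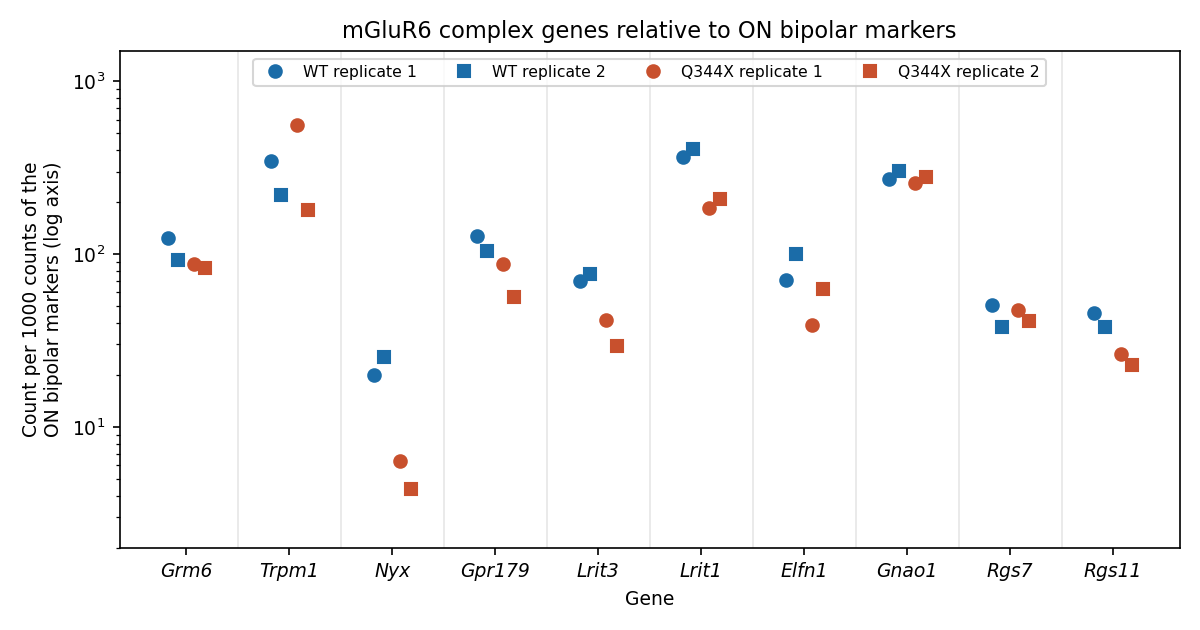
Normalized count of each gene per 1000 normalized counts of the 10 ON bipolar markers in the same library (log axis); blue is WT, orange is Q344X, circles are replicate 1 and squares replicate 2. Nyx drops from 19.96 and 25.4 to 6.33 and 4.37, whereas Rgs7 overlaps between the genotypes.

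Several photoreceptor genes were lower in the same Q344X libraries. Gnat1, the alpha subunit of rod transducin, was at 179576 and 204223 normalized counts in WT and at 39731 and 37666 in Q344X (-2.31 ± 0.20, SE, limma adjusted p = 0.00532). The other 4 of the 5 rod markers listed here did not pass: Pde6b was at 59.6% of its WT mean, Nrl at 74.8%, Sag at 97.1% and Nr2e3 at 142%. The 5 summed to 399132 and 439755 in WT and 231196 and 249928 in Q344X, a difference that is mostly Gnat1, and the 5 cone markers, of which Arr3, Opn1sw, Gnat2 and Pde6h fell, to 24328 and 22709 in WT and 9475 and 9624 in Q344X. Lrit1 and Elfn1 are expressed in those cells, and Lrit3 is known to be made there too; the part of lower photoreceptor RNA in their values was not tested. Of the other marker lists, Aqp4 of 5 Müller glia genes and Slc6a9 of 5 amacrine genes fell, and Sncg of 5 ganglion cell genes and Rpe65 of 2 tested pigment epithelium genes rose. Without a filter the calls of Aqp4 (limma adjusted p = 0.0770), Slc6a9 (0.0915), Arr3 (0.0583), Pde6h (0.0717), Opn1sw (0.0556), Sncg and Rpe65 ended. That of Slc6a9 also ended with a minimum mean of 50 (0.0508) and with robust eBayes (0.0502), and that of Aqp4 without a variance trend (0.0548). The 5 ganglion cell genes had a median log2 fold change of 0.74, with 0 below 0. At an unadjusted p under 0.05 (limma) 3 of these 5 were higher and 0 lower, with no share over all tested genes computed at that threshold. Without WT replicate 1 the calls of Aqp4 (adjusted p = 0.174), Slc6a9 (0.300), Sncg (0.165), Rpe65 (0.0561), Opn1sw (0.102) and Gnat2 (0.0869) ended, and without WT replicate 2 those of all but Sncg did (0.0592 to 0.283). Among 3 horizontal cell, 3 microglia and 3 endothelial genes 0 passed (limma; 3 endothelial genes were higher at an unadjusted p under 0.05), and no marker of any list was at 0 in a library.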

How the data were processed

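The authors deposited 1 table with a signal per Ensembl gene in 4 retinal libraries, which are gene counts divided by a size factor for each library. Per the submitters' processing notes the genome build was mm10 and the tools included STAR, featureCounts, Trim Galore 0.4.4, FastQC and, in version 1.16.1, DESeq2. No source used here gives their roles, the annotation or the strand setting. Per the labels' protocols, polyadenylated RNA was selected and directional libraries were made. Divided by what 1 read is worth, every value was whole (within 0.1), which gives 18452679 to 19706573 reads in genes per library. In 2 columns 1 read is worth close to 1, so this recovery did not pass a unit check and no count model was fitted.

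Symbols matched 52403 of 52636 identifiers, with positions and exon lengths from GENCODE M21 (GRCm38). The test took 16833 genes whose 4 libraries averaged 10 or more, among them all 10 members. limma 3.58.1 in R 4.3.3 fitted genotype to log2(normalized count + 1), with eBayes and a trend of the variance on the mean (residual df 2, prior df 3.90), two-sided, with Benjamini-Hochberg adjustment. Fold changes are on that scale, which understates the change of low genes. An exact permutation test of 2 against 2 libraries cannot go below p = 0.333, so adjusted p-values rest on variance shared between genes. The members and lists were chosen with earlier results of these data known. All members were named, with each called gene of the lists and the 4 most abundant uncalled genes of each pathway list; a few genes were left out of the lists, their sums and counts, and are not reported here. Tests of a fit without 1 library use the filter over all 4 and take the variance from the intact pair.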

Additional observations from a re-analysis of the deposited data

How the results depend on the processing

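No paired analysis was possible because the labels carry no replicate numbers and the order of deposit pairs no libraries. The count of members that fell was 3 with all libraries. It was 0 without a filter, where more genes are tested, 1 without a variance trend, 2 with a minimum mean of 50 and 1 to 5 with 1 library left out. The count that rose was 0, or 1 (Trpm1) without Q344X replicate 2. Nyx, Lrit3, Lrit1, Gpr179, Elfn1 and Rgs11 had a negative and Gnao1 a positive log2 fold change under all 13. Values not past the threshold changed sign with 1 library left out, where the log2 fold changes were -0.37 to 0.069 for Grm6, -0.43 to 1.19 for Trpm1, -0.027 to 0.41 for Rgs7, -1.25 to 0.091 for Rgs9, -0.80 to 0.25 for Cacnb2, -0.33 to 0.048 for Grm5, -0.46 to 0.099 for Grm7 and -0.21 to 0.43 for Grm2. Of all tested genes, 919 were higher and 1531 lower. Without a filter 153 and 383 were, and the length and GC correction gave 1946 and 1941. With 1 library left out 388 to 2353 genes were higher and 666 to 2973 lower. Of the 83 other listed genes, 3 were higher and 16 lower with all libraries. Without a filter 0 and 7 were, and 6 were higher under quantile normalization and 11 with the length and GC correction. With 1 library left out 1 to 15 were higher and 10 to 23 lower. The cause of these shifts was not tested. Nyx had the fewest reads of the members, 113 in 1 library, and the number of libraries limits every comparison.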
